A study of Homo sapiens with 2 samples.

Results

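Kinesins are motor proteins that move along microtubules, or shorten them, with energy from ATP. The genes described here are those whose symbol begins with KIF or KIFC followed by a number. The rule found 43 symbols of 25436 in the deposited table. One of them, KIF25-AS1, is an antisense RNA, which left 42 motor genes. By their textbook roles, 14 are mitotic kinesins, 15 are transport kinesins and 13 were grouped as other. Gene expression had been measured by RNA sequencing of polyadenylated RNA in HuES53 and HuES64, diploid human embryonic stem cell lines that were derived from embryos made by in vitro fertilization. Both lines were undifferentiated, at early passage, and served as controls in a study of haploid human embryonic stem cells. Each line has 1 library, so differences have no replicate check and no p-values, and each compares one library with the other.

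In dividing cells, mitotic kinesins build the spindle, move and align the chromosomes, and assemble the midzone at which the daughter cells separate. Many of their genes are periodic, with most transcript in the G2 and M phases of the cell cycle. Transport kinesins carry vesicles, organelles and protein complexes, and several of them are best known from the long axons of neurons. Kinesin-2 motors also carry cargo into cilia. Human embryonic stem cells divide fast and spend little time in G1.

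The promoters of mitotic kinesins are shown first, because they hold a feature that the choice of members did not use. The sequences are RefSeq windows on GRCh38.p14, with 250 bases before and 50 after the annotated start of the gene, written 5′ to 3′ on the strand of the gene. Such a window was found for 34 of the 42 motor genes. Capitals mark 2 short motifs, searched on both strands. The first is TTTGAA or its reverse complement, a form of the cell cycle homology region, an element known from the promoters of genes of G2 and mitosis. Other forms of this element were not searched, so a window without TTTGAA is not shown to lack it. The second is CCAAT or its reverse complement, the box bound by NF-Y. No matches of the motifs overlapped in the windows of the kinesins. The windows of KIF11 (chr10:92592880-92593179, plus strand), KIF14 (chr1:200620702-200621001, minus strand) and KIFC1 (chr6:33391573-33391872, plus strand) hold both motifs. These 3 were chosen after their values were seen: the first pair are the mitotic kinesins that differed most between the lines, and KIFC1 has the highest mean level among those with both motifs.
KIF11: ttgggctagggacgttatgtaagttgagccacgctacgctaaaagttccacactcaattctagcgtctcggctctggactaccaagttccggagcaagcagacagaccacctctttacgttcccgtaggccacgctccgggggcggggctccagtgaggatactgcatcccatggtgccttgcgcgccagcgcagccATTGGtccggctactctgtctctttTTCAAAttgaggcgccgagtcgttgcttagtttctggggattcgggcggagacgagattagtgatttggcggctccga
KIF14: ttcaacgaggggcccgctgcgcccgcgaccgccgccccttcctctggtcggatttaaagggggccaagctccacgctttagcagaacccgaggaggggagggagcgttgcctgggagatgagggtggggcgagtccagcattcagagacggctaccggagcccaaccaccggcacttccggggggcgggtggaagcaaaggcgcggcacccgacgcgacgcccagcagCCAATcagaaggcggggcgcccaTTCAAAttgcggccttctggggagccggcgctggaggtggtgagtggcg
KIFC1: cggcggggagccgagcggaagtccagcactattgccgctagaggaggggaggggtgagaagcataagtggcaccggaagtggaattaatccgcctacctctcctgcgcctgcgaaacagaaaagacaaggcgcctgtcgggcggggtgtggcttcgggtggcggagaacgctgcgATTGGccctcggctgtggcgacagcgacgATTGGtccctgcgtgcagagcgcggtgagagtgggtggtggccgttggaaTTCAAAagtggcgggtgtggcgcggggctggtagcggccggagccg
By the mean of the lines, the mitotic members with the highest levels were KIF22 (chr16:29790501-29790800, plus strand), KIF2C (chr1:44739587-44739886, plus strand) and KIF20A (chr5:138178862-138179161, plus strand). Their windows hold no TTTGAA, and the window of KIF2C holds neither motif. KIF1A (chr2:240821354-240821653, minus strand), the transport member with the highest level, is shown beside them and also holds neither.
KIF22: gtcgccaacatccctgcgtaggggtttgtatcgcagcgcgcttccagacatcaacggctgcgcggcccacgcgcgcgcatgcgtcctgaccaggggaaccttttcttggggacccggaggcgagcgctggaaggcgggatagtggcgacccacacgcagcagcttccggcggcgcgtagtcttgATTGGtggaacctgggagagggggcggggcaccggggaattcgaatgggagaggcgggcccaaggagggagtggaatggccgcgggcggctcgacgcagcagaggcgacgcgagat
KIF2C: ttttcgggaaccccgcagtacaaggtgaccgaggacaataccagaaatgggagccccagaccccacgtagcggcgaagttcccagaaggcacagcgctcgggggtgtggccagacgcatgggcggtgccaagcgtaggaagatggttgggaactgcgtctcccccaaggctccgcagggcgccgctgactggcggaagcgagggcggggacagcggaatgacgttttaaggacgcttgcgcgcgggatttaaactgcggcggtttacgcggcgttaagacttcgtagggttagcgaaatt
KIF20A: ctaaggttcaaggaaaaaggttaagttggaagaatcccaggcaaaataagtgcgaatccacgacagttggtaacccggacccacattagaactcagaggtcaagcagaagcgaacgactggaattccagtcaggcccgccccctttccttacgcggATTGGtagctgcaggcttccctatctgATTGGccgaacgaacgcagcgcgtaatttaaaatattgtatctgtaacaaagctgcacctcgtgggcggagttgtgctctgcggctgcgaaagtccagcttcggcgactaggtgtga
KIF1A: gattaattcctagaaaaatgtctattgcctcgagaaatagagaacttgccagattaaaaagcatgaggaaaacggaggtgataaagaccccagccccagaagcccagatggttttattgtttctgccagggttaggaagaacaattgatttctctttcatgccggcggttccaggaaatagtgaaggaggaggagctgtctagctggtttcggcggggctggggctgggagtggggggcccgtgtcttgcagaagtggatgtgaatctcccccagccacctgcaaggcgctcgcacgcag

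TTTGAA was found in 10 of the 14 mitotic kinesin promoters, against 1 of the 11 transport kinesin promoters found (KIF5B) and 0 of 9 in the other group. It was present in 15.4% of all 27305 promoter windows and in 9.12% of the 9274 windows of genes that averaged 1 FPKM or more over both lines. CCAAT was found in 11 of 14 mitotic, 3 of 11 transport and 3 of 9 other kinesin promoters, against 35.7% of all windows. Both motifs stood in 9 of 14 mitotic promoters, against 6.08% of all windows. In a list of 37 other G2/M genes, 31 had a window and 22 of these held TTTGAA. Counted from the annotated start of the gene, all TTTGAA matches of mitotic kinesins began between positions -55 and 30, while the single match in KIF5B began at position -140. A match is a description of letters, and no binding was measured here.

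**Figure D1:**
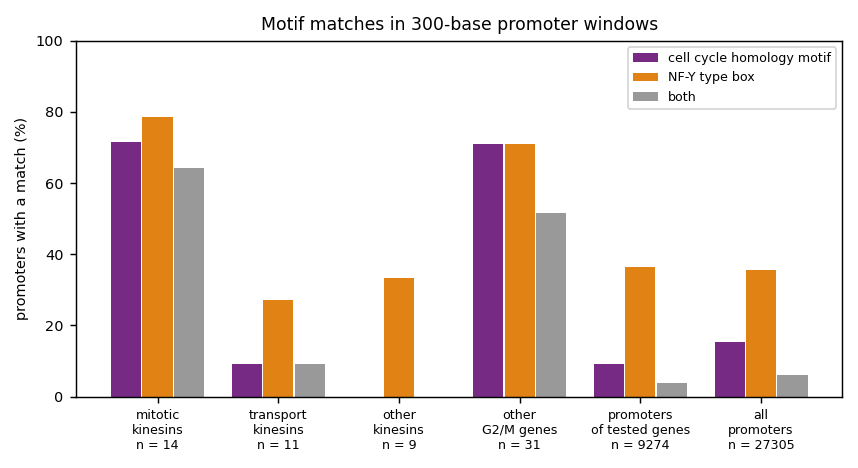
Share of 300-base promoter windows (vertical axis, percent) with a match to TTTGAA (cell cycle homology motif in the legend), to the NF-Y type box or to both, for the kinesin classes, other G2/M genes and all windows (n under each group). The first motif was found in 71.4% of mitotic and 9.09% of transport kinesin promoters, against 15.4% of all windows.

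Levels are given in FPKM, fragments divided by transcript length and by the size of the library, so that genes can be compared with each other within a line. Of the 42 motor genes, 35 averaged 1 FPKM or more over both lines, the filter for every difference below, and each of these also reached 1 FPKM in both lines. This took in 13 of 14 mitotic, all 15 transport and 7 of 13 other kinesins. Mitotic kinesins held 61.4% of the summed kinesin FPKM in HuES53 and 60.7% in HuES64, and transport kinesins held 31.0% in each. The summed level of mitotic kinesins was 392 FPKM in HuES53 and 323 FPKM in HuES64, against 198 and 165 FPKM for transport kinesins. The median of all 14 mitotic genes was 17.0 FPKM in HuES53 and 11.2 FPKM in HuES64, against 7.31 and 9.88 FPKM for all 15 transport genes. On the log2(FPKM + 1) scale, the median level of the mitotic genes above the filter lay 1.21 higher than that of the transport genes in HuES53 and 0.37 higher in HuES64. That contrast depended on which genes were kept: with a mean of 5 FPKM or more it was 0.28 in HuES53 and 0.10 in HuES64, with all members it was 0.15 in HuES64, and with KIF2A counted as mitotic and KIF21A and KIF21B as transport it was 1.43 in HuES53 and 1.14 in HuES64. At the filter of 1 FPKM, each median was the value of the same single gene in both lines. These were KIF4A for mitotic genes (18.2 FPKM in HuES53 and 13.1 FPKM in HuES64) and KIFC2 for transport genes. KIFC2 was higher in HuES64, whereas 12 of 15 transport genes were higher in HuES53. At this filter the change of the contrast between the lines is thus read from KIF4A and KIFC2. It did not need KIFC2: without overlapping loci, which leaves KIFC2 out, the contrast was 1.08 in HuES53 and 0.42 in HuES64. The classes overlapped widely: mitotic members above 0 ran between 1.46 and 88.5 FPKM in HuES53, and transport members between 2.82 and 38.1 FPKM.

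**Figure D2:**
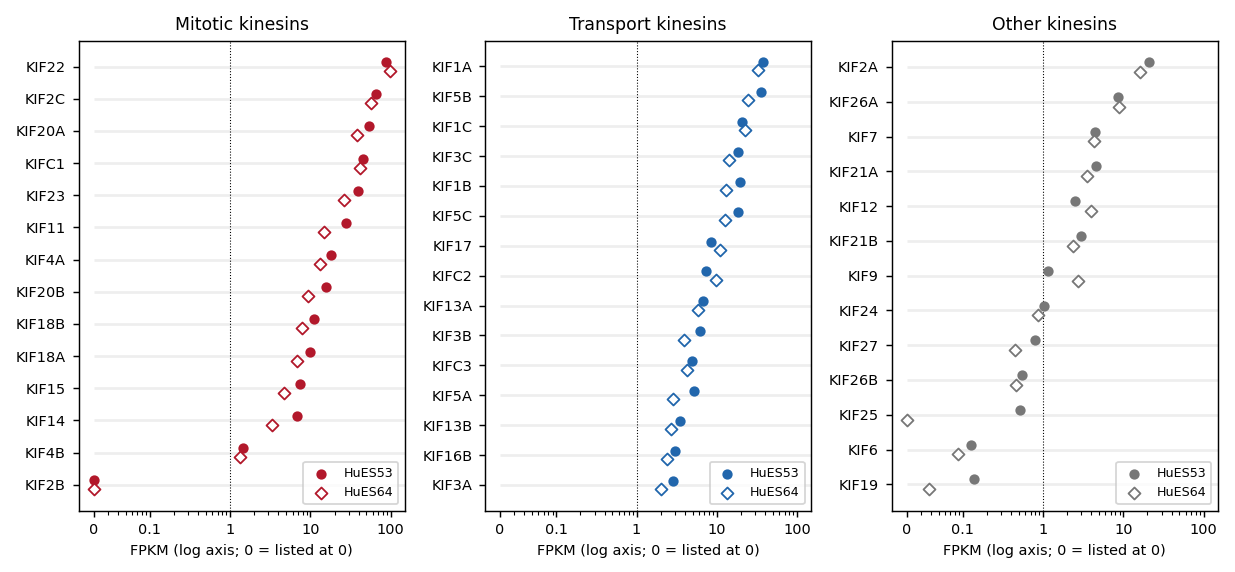
Level of each of the 42 kinesin motor genes in FPKM (horizontal log axis, with genes listed at 0 drawn at the mark 0) in HuES53 (filled circles) and HuES64 (open diamonds), by class. The 4 highest genes are mitotic, led by KIF22 at 88.5 and 98.7 FPKM, and every transport gene lies above 2 FPKM in both lines.

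Between the lines, kinesin genes were mostly somewhat higher in HuES53, and with a pseudocount of 1 FPKM and the deposited scaling none differed by 2-fold. Differences are those of log2(FPKM + 1), HuES53 minus HuES64, so that positive values mean higher in HuES53. Of the 35 genes above the filter, 28 were higher in HuES53 (31 with TPM scaling, which divides each library by its FPKM sum), beside 52.5% of all 13790 genes tested (72% with TPM scaling). The remaining 7 were higher in HuES64, beside 47.5% of all genes. A total of 12 of 13 mitotic kinesins were higher in HuES53 (13 with TPM scaling) and their median difference was 0.47. For transport kinesins it was 12 of 15 (13 with TPM scaling), and their median was 0.27. The other group was split, with 4 of 7 higher in HuES53 (5 with TPM scaling) and a median of 0.04. The median of all genes tested was 0.03 and the standard deviation of their differences was 0.56, and most single kinesin differences were smaller than that. This standard deviation takes in differences as large as -8.21 and 7.51, so it is wider than the spread of most genes. At least 1.5-fold higher were 9.22% of all genes in HuES53 and 7.84% in HuES64. With TPM scaling the median of all genes moved to 0.25, and relative to it the mitotic median was 0.46 and the transport median 0.25, against 0.44 and 0.25 with the deposited values. After removal of a trend with GC content and transcript length, described further on, the medians relative to all genes were 0.24 for mitotic and 0.12 for transport kinesins.

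No kinesin gene was at least 2-fold higher in HuES53, where 2.15% of all genes were, and none was at least 2-fold higher in HuES64, where 1.7% of all genes were. At a size of 1.5-fold, chosen after the values were seen, 4 of 35 were higher in HuES53, beside 9.22% of all genes, and 1 of 35 was higher in HuES64, beside 7.84%. With TPM scaling the 1.5-fold counts were 16 and 1, beside 23% and 3.87% of all genes, and KIF11 and KIF14 passed 2-fold toward HuES53, beside 5.22% of all genes (none did toward HuES64, beside 1.32%). With a pseudocount of 0.1 FPKM, KIF14 passed 2-fold toward HuES53, beside 4.24% of all genes, and KIF9 toward HuES64, beside 2.94%; at 1.5-fold the counts were then 7 and 2, beside 13.4% and 10.2%.

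**Figure D3:**
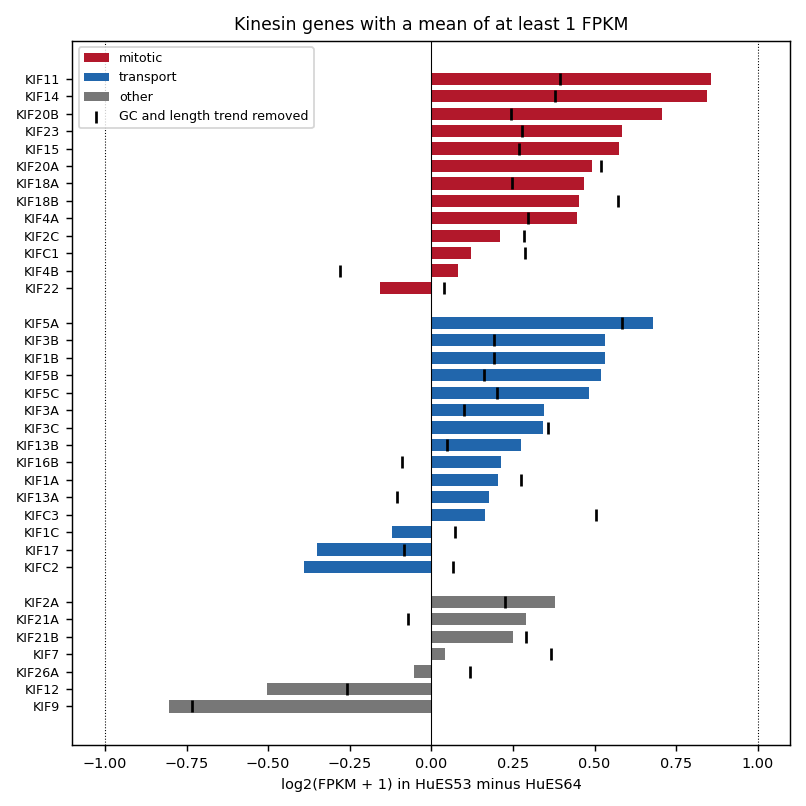
Difference of log2(FPKM + 1), HuES53 minus HuES64 (horizontal axis), for the 35 kinesin genes above the filter, by class (bars), with the value after removal of the trend with GC content and transcript length (black ticks) and 2-fold marked by dotted lines. KIF11 (0.86) and KIF14 (0.85) lead the genes higher in HuES53, and KIF9 (-0.80) those higher in HuES64.

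KIF11, the kinesin-5 motor that slides antiparallel microtubules apart to make the spindle bipolar, stood at 27.7 FPKM in HuES53 and 14.8 FPKM in HuES64, a difference of 0.86. Its row lies at chr10:94352825-94415152, in the build of the deposited table. With the deposited values this was the largest difference of any kinesin toward HuES53. KIF15, a kinesin-12 that can take over part of this work, stood at 7.50 FPKM in HuES53 and 4.71 FPKM in HuES64 (0.57). KIFC1, a kinesin-14 that moves the other way along microtubules, draws the poles together and clusters centrosomes, was nearly level at 45.0 FPKM in HuES53 and 41.2 FPKM in HuES64 (0.12). KIFC1 thus stood 1.63 times above KIF11 in HuES53 and 2.78 times above it in HuES64, a ratio that does not depend on the scaling between libraries. After removal of a trend with GC content and transcript length, described further on, the differences were 0.39 for KIF11, 0.27 for KIF15 and 0.29 for KIFC1. By the longest transcript of each gene they were 0.55 for KIF11, 0.28 for KIF15 and 0.32 for KIFC1.

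Kinesins that shorten microtubules or bind chromosomes covered a wide range of levels. KIF22, a chromokinesin that pushes chromosome arms away from the poles, was the highest kinesin in either line, at 88.5 FPKM in HuES53 and 98.7 FPKM in HuES64. It was the one mitotic member above the filter that was higher in HuES64 (-0.16), and with TPM scaling, or after removal of that trend, it was higher in HuES53. KIF2C, a depolymerase of centromeres and kinetochores that corrects wrong attachments, came next at 66.2 FPKM in HuES53 and 57.1 FPKM in HuES64 (0.21). Its relative KIF2A, counted in the other group because it also acts at spindle poles, in neurons and at cilia, stood at 21.2 FPKM in HuES53 and 16.1 FPKM in HuES64 (0.38). KIF2B, another depolymerase of this family, was listed at 0 in both lines. KIF18A, which dampens the movements of chromosomes at metaphase, stood at 9.80 FPKM in HuES53 and 6.82 FPKM in HuES64 (0.47). KIF18B, which limits the length of astral microtubules, stood at 11.2 FPKM in HuES53 and 7.94 FPKM in HuES64 (0.45). After removal of that trend, differences were 0.28 for KIF2C, 0.22 for KIF2A, 0.25 for KIF18A and 0.57 for KIF18B.

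The chromokinesin KIF4A, which also organises the anaphase midzone, stood at 18.2 FPKM in HuES53 and 13.1 FPKM in HuES64 (0.45). Its close copy KIF4B stood at 1.46 and 1.32 FPKM (0.08). The longest reference transcripts of these genes are 95.2% equal in aligned bases, and 14.1% of the 50-base words of KIF4A recur in KIF4B. KIF4A and KIF4B were the sole pair among the motor genes to share such words. Fragments from such stretches cannot be assigned to one of the pair, so the value of KIF4B is uncertain.

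The kinesins of the midzone and of cell separation were all higher in HuES53. KIF20A, which carries the chromosomal passenger complex to the midzone, stood at 54.4 FPKM in HuES53 and 38.4 FPKM in HuES64 (0.49); its locus overlaps CDC23 in the table. KIF23, the motor subunit of centralspindlin, stood at 39.4 FPKM in HuES53 and 25.95 FPKM in HuES64 (0.58), and its locus overlaps LOC145694. RACGAP1, the other subunit of centralspindlin and named outside the rule, stood at 35.1 FPKM in HuES53 and 23.8 FPKM in HuES64 (0.55), close to KIF23 in both lines. KIF20B, which acts in the last steps of cytokinesis, stood at 15.8 FPKM in HuES53 and 9.31 FPKM in HuES64 (0.71). KIF14, which acts with citron kinase in cytokinesis, stood at 6.77 FPKM in HuES53 and 3.32 FPKM in HuES64 (0.85). Its plain ratio, with no pseudocount, was 2.04, the largest of the mitotic kinesins, and its row lies at chr1:200520625-200589862. With the pseudocount of 1 FPKM it fell short of 2-fold. With the trend in GC content and length removed, differences were 0.52 for KIF20A, 0.28 for KIF23, 0.24 for KIF20B and 0.38 for KIF14.

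The kinesin-1 heavy chains, which carry cargo together with light chains, were all higher in HuES53. KIF5B, the form found in most tissues, stood at 35.0 FPKM in HuES53 and 24.1 FPKM in HuES64 (0.52). KIF5C, known from neurons, stood at 18.1 FPKM in HuES53 and 12.7 FPKM in HuES64 (0.48), and KIF5A, also known from neurons, stood at 5.22 FPKM in HuES53 and 2.89 FPKM in HuES64 (0.68). The order within the family was the same in each line, with KIF5B 1.94 and 1.90 times above KIF5C in HuES53 and HuES64, and 6.71 and 8.36 times above KIF5A. The level of KIF5C is the sum of 2 rows that do not overlap. The row at chr2:149793796-149883273 stood at 15.5 FPKM in HuES53 and 12.1 FPKM in HuES64. The row at chr2:149632819-149686923, which lies 106872 bases away, stood at 2.60 FPKM in HuES53 and 0.578 FPKM in HuES64, a ratio of 4.50. The ratio of the larger row was 1.28, so the row of lower level had by far the larger contrast between the lines. By the larger row alone the difference of KIF5C was 0.33, and the ratios of KIF5B to KIF5C given above rest on the sum. What the smaller row holds was not tested.

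With the deposited values, KLC1 was nearly level among the light chains and the other 3 were higher in HuES64. KLC1 stood at 49.0 FPKM in HuES53 and 48.5 FPKM in HuES64 (0.01), while KLC2 stood at 17.0 and 19.3 FPKM (-0.17), KLC3 at 5.34 and 7.26 FPKM (-0.38), and KLC4 at 15.7 and 18.6 FPKM (-0.23). After removal of the trend with GC content and length, KLC1 lay at -0.03, KLC2 at 0.15, KLC3 at -0.01 and KLC4 at -0.0036, beside 0.16 for KIF5B, 0.20 for KIF5C and 0.59 for KIF5A. With TPM scaling the light chains lay at 0.26 for KLC1, 0.06 for KLC2, -0.18 for KLC3 and 0.00 for KLC4.

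The kinesin-2 motors carry cargo along cilia and in neurons. KIF3A stood at 2.82 FPKM in HuES53 and 2.01 FPKM in HuES64 (0.34), and its partner KIF3B at 6.17 FPKM in HuES53 and 3.96 FPKM in HuES64 (0.53). KIF3C, another partner of KIF3A, was the highest of the 3, at 18.4 FPKM in HuES53 and 14.3 FPKM in HuES64 (0.34), which is 6.53 and 7.14 times the level of KIF3A. KIFAP3, the accessory subunit of the KIF3A and KIF3B motor, stood at 5.76 FPKM in HuES53 and 4.13 FPKM in HuES64 (0.40). KIF17, which forms a motor of its own and transports receptors in mouse neurons, was higher in HuES64, also with TPM scaling. It stood at 8.42 FPKM in HuES53 and 11.02 FPKM in HuES64 (-0.35). After removal of the trend with GC content and length, differences were 0.10 for KIF3A, 0.19 for KIF3B, 0.36 for KIF3C, 0.06 for KIFAP3 and -0.08 for KIF17. By the longest transcript, KIF3A lay at -0.02 and KIF17 at -0.20.

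Of the kinesin-3 transport motors, KIF1A was the highest transport kinesin in either line. KIF1A, which carries precursors of synaptic vesicles in neurons, stood at 38.1 FPKM in HuES53 and 32.9 FPKM in HuES64 (0.20). KIF1C stood at 20.9 FPKM in HuES53 and 22.8 FPKM in HuES64 (-0.12, higher in HuES53 with TPM scaling). KIF1B, a carrier of mitochondria and vesicles, stood at 19.4 FPKM in HuES53 and 13.1 FPKM in HuES64 (0.53). After removal of the trend with GC content and length, KIF1A lay at 0.27, KIF1C at 0.07 and KIF1B at 0.19. By the longest transcript, KIF1C lay at -0.20. The endosomal motors were lower: KIF13A stood at 6.66 and 5.79 FPKM (0.18), KIF13B at 3.47 and 2.70 FPKM (0.27), and KIF16B at 2.97 and 2.43 FPKM (0.21) in HuES53 and HuES64. After removal of the trend they lay at -0.10 for KIF13A, 0.05 for KIF13B and -0.09 for KIF16B. Of the kinesin-14 transport motors, KIFC2 was higher in HuES64 also with TPM scaling, at 7.31 FPKM in HuES53 and 9.88 FPKM in HuES64 (-0.39). After removal of the trend with GC content and length it lay at 0.07, or at -0.12 by the longest transcript. Its locus overlaps FOXH1 in the table. KIFC3 stood at 4.96 and 4.31 FPKM (0.17, or 0.51 with the trend removed and 0.38 by the longest transcript).

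Several of these motors are best known from neurons, and neuron markers were read beside them. Of 10 such markers, 4 had a mean under 1 FPKM (MAP2, DCX, SNAP25 and ELAVL4), none was listed at 0, and their summed level was 291 FPKM in HuES53 and 304 FPKM in HuES64, most of it TUBB3. Of the 6 above the filter, 3 were higher in HuES53, led by NEFM at 7.42 FPKM in HuES53 and 2.25 FPKM in HuES64. The other 3 were higher in HuES64, led by STMN2 at 3.80 FPKM in HuES53 and 5.90 FPKM in HuES64. In a bulk sample, more cells of a type and more RNA per cell cannot be told apart, and the part of such cells in the levels of KIF1A, KIF5A and KIF5C was not tested. All 6 pluripotency markers lay between 84.7 and 1381 FPKM in both lines.

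In the other group, kinesins of cilia, signalling and microtubule dynamics stood at 8.93 FPKM or less in both lines, apart from KIF2A. KIF26A, which lacks motor activity, was the highest after KIF2A, at 8.57 FPKM in HuES53 and 8.93 FPKM in HuES64 (-0.05, higher in HuES53 with TPM scaling). KIF7, a regulator of Hedgehog signalling at the tip of the cilium, stood at 4.47 and 4.31 FPKM, KIF21A at 4.53 and 3.53 FPKM, and KIF21B at 2.98 and 2.34 FPKM. KIF12 was higher in HuES64, at 2.52 FPKM in HuES53 and 3.98 FPKM in HuES64 (-0.50), also with TPM scaling, and lay at -0.26 after removal of the trend with GC content and length.

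KIF9, a kinesin of motile cilia, had the largest difference toward HuES64. It stood at 1.14 FPKM in HuES53 and 2.74 FPKM in HuES64 (-0.80, or -0.73 after removal of that trend), a plain ratio of 2.39 in favour of HuES64. Its locus, chr3:47269516-47324337, overlaps FLJ39534 and KLHL18 in the table. Shared exons and strand were not examined, and the part of these genes in the value of KIF9 was not tested. Of 9 markers of multiciliated cells found in the table, 7 had a mean under 1 FPKM, and their summed level was 8.37 FPKM in HuES53 and 6.37 FPKM in HuES64, with DNAI2 listed at 0 in both lines. FOXJ1, the master factor of such cells, stood at 5.97 FPKM in HuES53 and 3.16 FPKM in HuES64, and CCNO, the one other marker above the filter, at 0.781 FPKM in HuES53 and 1.54 FPKM in HuES64.

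The 7 motor genes under the filter were KIF2B, KIF24, KIF27, KIF26B, KIF25, KIF19 and KIF6. KIF24, which acts at centrioles, stood at 1.04 FPKM in HuES53 and 0.876 FPKM in HuES64, and KIF27, a relative of KIF7, at 0.800 and 0.453 FPKM. KIF26B stood at 0.555 and 0.467 FPKM. KIF25 had 0.515 FPKM in HuES53 and a listed value of 0 in HuES64, so no fold is given; the depth estimated for these libraries would put about 23.3 fragments behind the value in HuES53. KIF6 (0.127 and 0.0862 FPKM) and KIF19 (0.139 and 0.0378 FPKM), both of motile cilia, rested on an estimated 20.9 and 9.2 fragments in HuES53 and 11.6 and 2 in HuES64. Differences of that size cannot be read at this depth.

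The difference of a kinesin between the lines went with the GC content of its transcripts. Across the 35 kinesins, Spearman's rho between GC content and the difference was -0.69, beside -0.49 across 11916 genes of the table; genes are not independent replicates, and all share the same pair of libraries. Genes in the tenth of the table lowest in GC had a median difference of 0.30, and those in the tenth highest had one of -0.31. KIF20B, with 34.2% GC, KIF14, with 37.6%, and KIF11, with 38.3%, had the largest differences among mitotic kinesins. KIFC1, with 55.4%, and KIF22, with 57.6%, were among those with the smallest. Once medians over bins of GC content and length were subtracted, the rho was 0.03. The subtraction is made to remove such a trend, so this value is no separate result. The median difference was then 0.28 for mitotic kinesins, with 12 of 13 above 0, and 0.16 for transport kinesins, with 12 of 15 above 0, beside 0.04 and 55% above 0 for all genes. KIF11 then lay at 0.39 and KIF14 at 0.38, while KIF18B, with 60.4% GC, lay at 0.57 and KIF5A at 0.59. With the longest transcript of each gene in place of the median, the mitotic and transport medians were 0.30 and 0.19. That setting called no kinesin at 1.5-fold toward HuES53. With the median of the transcripts, KIF5A was the sole kinesin called at 1.5-fold toward HuES53, beside 7.18% of all genes, and KIF9 the sole one toward HuES64, beside 4.18%.

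**Figure D4:**
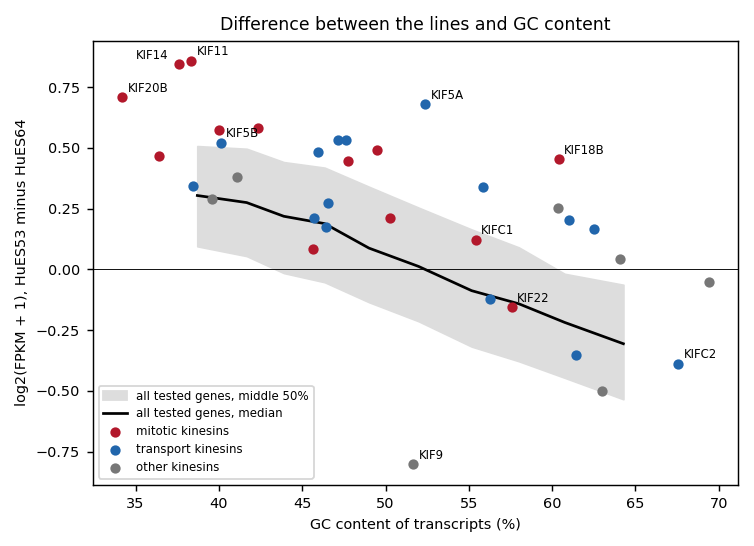
Difference of log2(FPKM + 1) in HuES53 minus HuES64 (vertical axis) against the GC content of reference transcripts (horizontal axis, percent) for 35 kinesin genes by class (points), with the median and the middle 50% of all tested genes in 10 groups of GC content (line and band). Low-GC members such as KIF11 and KIF14 lie above the band, and so do KIF5A and KIF18B at higher GC, while KIF9 lies below it.

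Genes that work with kinesins were read from lists. The list of partners mixes genes of mitosis with genes of cargo transport, and it also counts CENPE, itself a kinesin. Of 22 kinesin partners above the filter, 15 were higher in HuES53, beside 52.5% of all genes, with a median of 0.37, or 0.18 with the trend removed. Apart from HAUS1, the 7 partners higher in HuES64 were genes of cargo transport, among them KLC2, KLC3 and KLC4. The pooled count is thus no result for transport partners alone. By the mean of the lines the highest partners were the mitotic kinase gene AURKB (126 and 125 FPKM in HuES53 and HuES64), NUSAP1 (108 and 81.1 FPKM) and HAUS1, of the augmin complex that seeds spindle microtubules (64.8 and 77.2 FPKM). TPX2, which binds KIF11 and KIF15 on the spindle and is named outside the rule, stood at 78.3 and 53.6 FPKM. The largest differences were those of TRAK2, an adaptor between kinesin-1 and mitochondria (5.10 and 2.23 FPKM, 0.92), ECT2, the activator of the cleavage furrow (42.6 and 24.1 FPKM, 0.79), and INCENP, of the passenger complex (18.2 and 10.98 FPKM, 0.68). Their order changed with the trend removed: INCENP then lay at 1.00, TRAK2 at 0.78 and ECT2 at 0.54. CENPE, the kinesin-7 of kinetochores, has a symbol outside the rule for members. It stood at 6.71 FPKM in HuES53 and 3.95 FPKM in HuES64 (0.64, or 0.31 with the trend removed). STARD9, a kinesin-3 of the centriole that the rule also leaves out, stood at 0.473 and 0.650 FPKM.

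Of the 37 other G2/M genes, 28 were higher in HuES53, beside 52.5% of all genes, with a median of 0.30, or 0.21 with the trend removed. Whether this differs from the mitotic kinesins was not tested. Among them BUB1B (72.8 and 35.3 FPKM in HuES53 and HuES64, 1.02), TOP2A (102 and 53.9 FPKM, 0.91) and HMMR (49.6 and 26.5 FPKM, 0.88) differed most, and by the mean of the lines the highest were PTTG1 (427 and 505 FPKM), UBE2C (364 and 302 FPKM) and CCNB1 (204 and 160 FPKM). Dynein and dynactin genes form the main motor that moves opposite to most kinesins. They were balanced with the deposited values: 13 of 24 were higher in HuES53, beside 52.5% of all genes, with a median of 0.02. Once the trend was removed, 11 of 24 lay above 0, beside 55% of all genes, with a median of -0.07. With TPM scaling most of them were higher in HuES53, as were 72% of all genes. DYNLL1 (492 and 499 FPKM), DYNLRB1 (177 and 219 FPKM) and DYNLT1 (131 and 144 FPKM) were the highest, and DYNC1LI2 (29.7 and 18.8 FPKM, 0.63), DCTN3 (27.1 and 39.97 FPKM, -0.55) and DYNC1I2 (37.9 and 26.2 FPKM, 0.52) differed most. The share of cells in mitosis was not measured in these data, and its part in the levels of the mitotic kinesins was not tested.

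**Figure D5:**
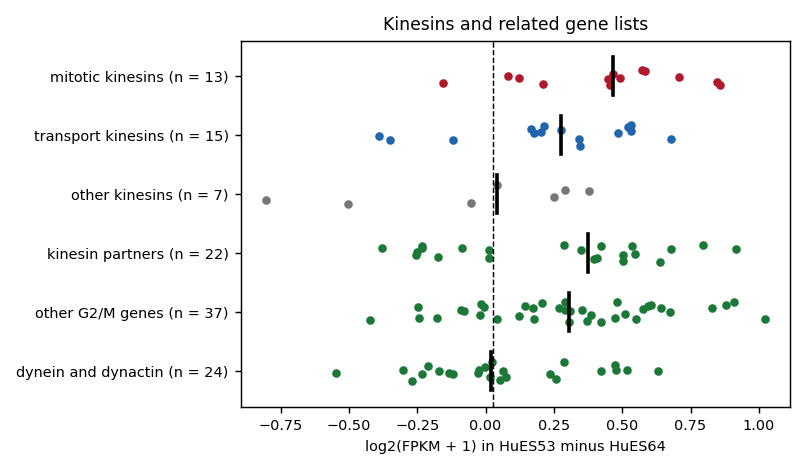
Difference of log2(FPKM + 1) in HuES53 minus HuES64 (horizontal axis) for each gene of the kinesin classes and of 3 related lists above the filter (points), with the median of each group (black bars) and of all tested genes (dashed line, 0.03). The medians are 0.47 for mitotic kinesins, 0.27 for transport kinesins and 0.02 for dynein and dynactin.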

How the data were processed

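The authors deposited 1 table of FPKM values with 25593 rows, each with a symbol, a locus and 1 value per line. Per the submitters' processing notes, TopHat2 2.0.4 and Cufflinks 2.0.2 were used, with no roles stated; the genome build, annotation and strand setting: not given in the sources used here. Of the 44 rows of members, 1 starts within 1000 bases of its gene on GRCh38, so coordinates of the table were not mixed with GRCh38. Rows of chromosome Y (136) were not used, and rows that share a symbol were summed (21 symbols), which is how KIF5C got 1 value. Differences use log2(FPKM + 1) in HuES53 minus HuES64 for 13790 genes that averaged 1 FPKM or more; the pseudocount understates the change of low genes. No count test was run, as FPKM are not counts.

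Classes and lists (kinesin partners, other G2/M genes, dynein and dynactin, markers of pluripotent, neuron, multiciliated and fibroblast cells) were chosen with earlier results of these data known. All members may be named; of the partner, G2/M and dynein lists, the 3 highest, the 3 most different, any gene 2-fold different, and CENPE, STARD9, KIFAP3 and KLC1 to KLC4 are named. Of 10 fibroblast markers, 7 averaged 1 FPKM or more, with summed levels of 222 FPKM in HuES53 and 240 in HuES64 and FAP listed at 0 in HuES53. Most of each sum was COL1A1 (138 FPKM in HuES53 and 168 in HuES64) and COL1A2 (66.5 and 46.7 FPKM). COL3A1, the sole one past 2-fold, stood at 3.08 FPKM in HuES53 and 8.00 FPKM in HuES64 (-1.14). Median GC content and length of transcripts came from GENCODE release 29 for 11916 genes (86.4% of those tested, all 35 members tested), and medians over 20 bins of each were subtracted in 5 rounds, a step tested on simulated data. Steps of low olfactory receptor values (18 of 21 in HuES53 and 9 of 12 in HuES64 within 3% of a whole number of fragments, assuming 200-base fragments) gave about 18.1 fragments per FPKM and kilobase in HuES53 and 14.8 in HuES64. These are fitted values on few genes, and they cover counting error only. Estimated fragments use the longest protein-coding transcript. Analyses used Python 3.11.15, pandas 2.3.3 and numpy 2.4.6.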

Additional observations from a re-analysis of the deposited data

How the results depend on the processing

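Each line has 1 library, and both were used throughout. No paired analysis was possible because each line has a single library. A median was counted as moved when it shifted by 0.1 or more on the log2 scale, and a count when it shifted by over 1.5 times. Under this measure 103 of the alternative values of the class medians and counts held and 23 moved; none changed sign. With TPM scaling the median difference was 0.71 for mitotic and 0.50 for transport kinesins, 2 kinesins were at least 2-fold and 16 at least 1.5-fold higher in HuES53. With a pseudocount of 0.1 FPKM, 1 kinesin (KIF14) was at least 2-fold higher in HuES53 and 1 (KIF9) in HuES64, beside 4.24% and 2.94% of all genes, and the 1.5-fold counts were 7 and 2. After removal of the trend with GC content and length, the median differences were 0.28 (mitotic) and 0.16 (transport) and 1 kinesin was at least 1.5-fold higher in HuES53; by the longest transcript, an alternative chosen after seeing the data, the mitotic median was 0.30 and that count was 0. In that setting KIF13A, KIF21A, KIF22, KIF26A, KIF3A and KIF4B had the other sign, and by the median transcript KIF13A, KIF16B, KIF1C, KIF21A, KIF22, KIF26A, KIF4B and KIFC2. With a mean of at least 5 FPKM, 7 of 10 transport kinesins were higher in HuES53, and 0 kinesins were at least 1.5-fold higher in HuES64, as was the case without overlapping loci (0), since KIF9 is then left out. The level of mitotic over transport kinesins moved most: in HuES53 it was 0.28 with a mean of at least 5 FPKM, 1.43 with KIF2A counted as mitotic and KIF21A and KIF21B as transport, 1.497 without KIF4B and 1.08 without overlapping loci; in HuES64 it was 0.15 with no filter, 0.10 with a mean of at least 5 FPKM and 1.14 with the changed classes. For the rest the cause was not tested.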
